A study of Homo sapiens with 8 samples.

Results

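The genes described here encode the machinery that carries newly made proteins into the endoplasmic reticulum (ER) and on to the Golgi apparatus. They are 49 named genes out of the 58395 in the deposited count table, listed by symbol, and all 49 were found. The list was drawn up with earlier results of these data known. They comprise 7 genes of the signal recognition particle and its receptor, 14 of the translocon with its associated complexes and the signal peptidase, 12 of the COPII coat, 5 of the COPI coat and 11 cargo or retrieval receptors.

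RNA was measured in AB8 cells, a human line derived from podocytes, the filtration cells of the kidney glomerulus. All libraries came from cells carrying a pIND21 construct for human CRB2, a transmembrane polarity protein, together with GFP and the S267A change (pIND21_hCrb2+GFP_S267A), at passage 3 to 8 after modification. In 4 libraries the construct had been induced with doxycycline (Dox) for 48 h, and in 4 it had not (woDox), and the replicate numbers 1 to 4 occur in both groups. Setting induced against non-induced cells shows what goes with induction as a whole: the drug, the raised CRB2, the GFP and the S267A change cannot be told apart.

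Secreted and membrane proteins are recognised by the signal recognition particle (SRP) as their signal sequence leaves the ribosome, are passed through the SEC61 channel, and lose the signal sequence to the signal peptidase. Folded cargo is then gathered by receptors into vesicles coated with COPII, which bud from the ER. Vesicles coated with COPI return escaped ER proteins and the receptors themselves. CRB2 is itself a membrane protein with a signal sequence, and podocytes depend on this route for the proteins of the slit diaphragm.

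Counted reads numbered 19008593 to 23081616 per induced library and 16829454 to 21731488 per non-induced library. CRB2 stood at 1734, 4252, 4599 and 4481 CPM (reads per 1000000 counted reads, scaled by TMM) in induced libraries 1 to 4 and at 8.31, 26.0, 26.4 and 21.8 CPM in non-induced libraries 1 to 4, so the induced libraries were higher in every pair. The podocyte markers were uneven: NPHS1 had 3 reads in all 8 libraries together, and SYNPO stood at 20.2 to 50.5 CPM. The 2 libraries numbered 1 stood apart from the rest of their groups, so results are given with and without that pair. Same-numbered libraries deviated together from their group means, most clearly those numbered 1 (correlation 0.911). Among numbers 2 to 4, same-numbered libraries correlated at 0.648 to 0.707 and differently numbered ones at 0.349 to 0.667, so their pairing is less sure. A fit that blocks on the replicate number is given beside the fit without it.

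Without the block, none of the 49 genes passed the threshold of an edgeR quasi-likelihood adjusted p of 0.05, where 0.0384% of all 15637 tested genes did. Unadjusted p values were under 0.05 for 2 of them, SPCS3 and SEC11A, beside 1466 of all 15637 tested genes. DESeq2 without the block also called 0 of the 49, beside 108 higher and 132 lower among all tested genes. DESeq2 with the block called 3 of the 49, SEC61A1, SPCS3 and LMAN1, beside 7.08% of all tested genes. In edgeR with the block, 8 of 49 passed (16.3%), beside 13.8% of all tested genes. Of these, 6 were higher in induced cells (12.2%, against 7.51% of all tested genes): SEC61A1, SPCS3, LMAN1, COPB2, SEC31A and SRP68. The other 2, SEC11A and KDELR1, were lower, where 6.29% of all tested genes were. Among the 7525 tested genes at least as abundant as the least abundant of the 49, the share called was 20.5% and the share higher 11.6%, so the share of the 49 called was below that of comparably abundant genes and the share higher was close to it.

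The changes were small in every group of the machinery. Fitted log2 changes with the block ran from -0.12 (SRP14) to 0.19 (SEC61A1), with a median of 0.02 beside 0.00028 over all tested genes. All 49 genes passed the expression filter, with 420 to 8974 reads per gene and library, and their median standard error was 0.037 with the block and 0.081 without it. With the block, the 95% confidence interval of every one of the 49 lay within a 1.25-fold change in either direction, as did 88.6% of the comparably abundant genes. Without the block this held for 43 of 49, and the intervals reached from -0.37 to 0.40. Counts from bulk cells do not tell fewer cells with a transcript from less transcript per cell.

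**Figure D1:**
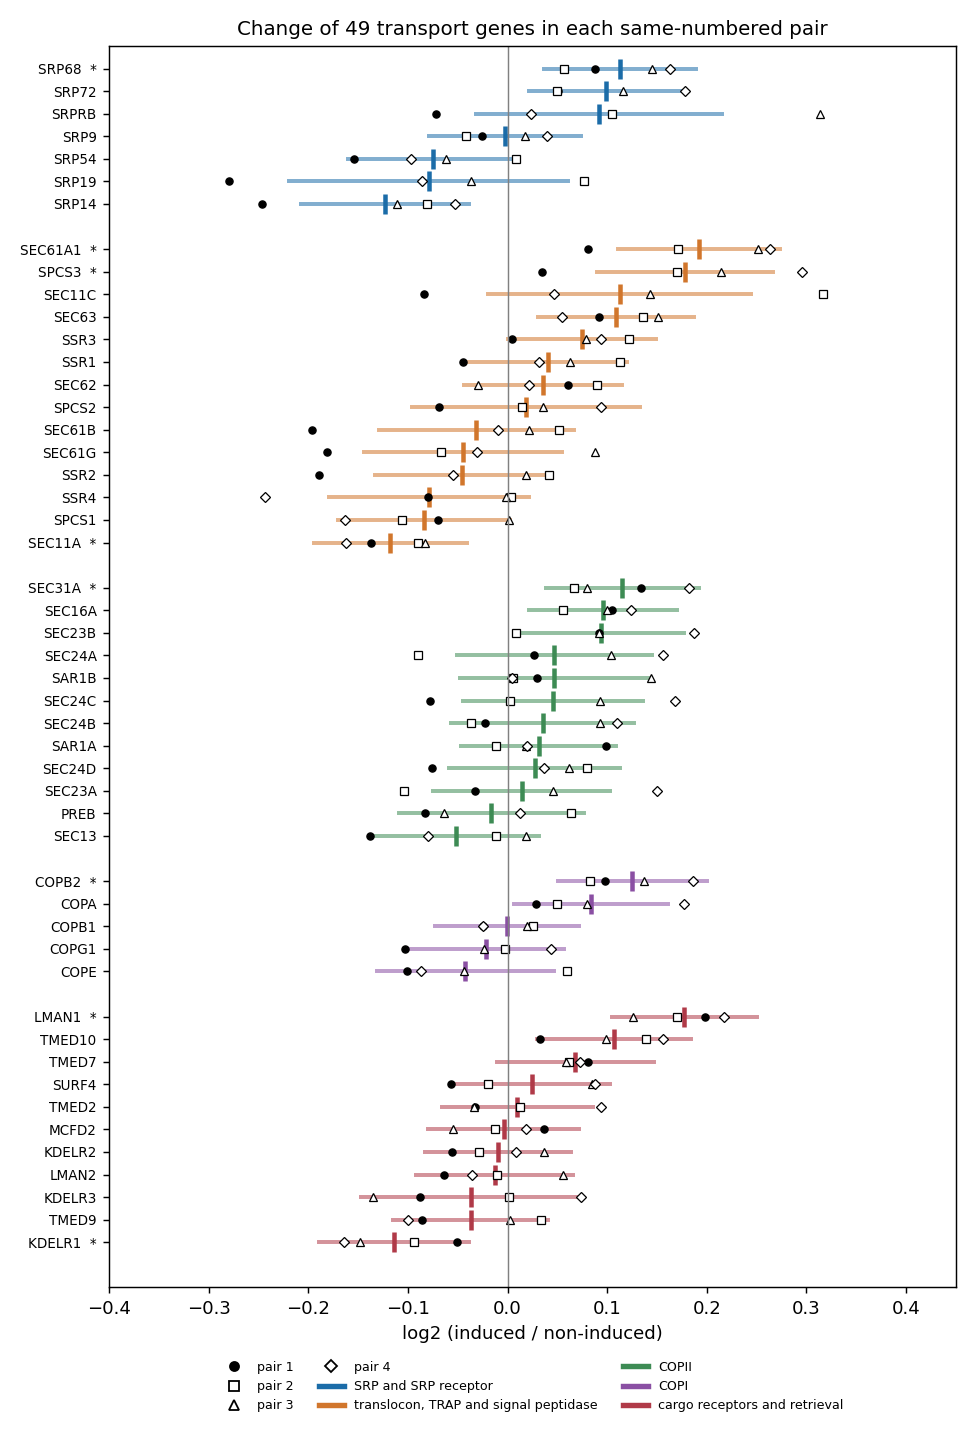
Log2 change of induced over non-induced cells for each of the 49 genes, ordered by group and by change. Points are the 4 same-numbered pairs (filled circles, pair 1), vertical ticks the fit with the replicate block, horizontal bars its 95% confidence interval, and asterisks mark the 8 genes with an edgeR adjusted p under 0.05 in that fit. All ticks lie between -0.12 and 0.19, and pair 1 is the leftmost point of many genes.

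The same sign in 4 of 4 pairs was seen for 18 of 49 genes (36.7%), beside 35.6% of all tested genes. These were 15 higher (30.6%, beside 18.6%) and 3 lower (beside 17.0%). The pairs themselves differed in direction. In pair 1, 19 of the 49 genes were higher in the induced library, with a median log2 change of -0.05. In pairs 2, 3 and 4, 33, 36 and 34 of them were higher, with medians of 0.03, 0.06 and 0.04. The groups did not overlap in CPM for 1 of the 49 genes, SPCS3, a share of 2.04% beside 7.04% of all tested genes.

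The signal recognition particle is a ribonucleoprotein of 6 proteins, of which SRP54 binds the signal sequence, SRP9 and SRP14 form the part that slows translation, SRP68 and SRP72 bind each other on the RNA, and SRP19 helps SRP54 to assemble. Of the 7 genes measured here, which include SRPRB for the membrane subunit of the receptor, 1 was called higher and 0 were called lower with the block, and their median log2 change was -0.0024 without the block. SRP68 was at 164.8, 193.5, 197.5 and 199.98 CPM in induced libraries 1 to 4 and at 155.1, 186.0, 178.6 and 178.6 CPM in non-induced libraries 1 to 4. Each induced library was above its same-numbered partner, library 1 was the lowest of both groups, and the groups overlapped. For SRP68 the fitted log2 change was 0.11 (SE 0.036, 8.16% higher, edgeR adjusted p = 0.0485 with the block and 0.750 without). It no longer passed without any 1 of the 4 pairs (adjusted p 0.0549 to 0.252) or with DESeq2 (0.182). Nor did it pass with RLE or upper-quartile scaling, no expression filter or no robust estimation (edgeR adjusted p 0.0533 to 0.0857 with the block).

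SRP72, the partner of SRP68, averaged 252 ± 6.12 CPM in induced and 235.5 ± 12.2 CPM in non-induced cells (SD, n = 4 each) and was higher in 4 of 4 pairs, without passing (log2 0.10, edgeR adjusted p = 0.0826 with the block). SRP14 went the other way, with a log2 change of -0.12 and values lower in 4 of 4 pairs. It averaged 155.6 ± 8.05 CPM in induced and 169.7 ± 14.8 CPM in non-induced cells. Its edgeR adjusted p was 0.0518 with the block and fell under 0.05 with RLE scaling (0.0471), upper-quartile scaling, library totals, no expression filter or a filter at 10 CPM. The proteins of SRP9 and SRP14 work as a heterodimer, and SRP9 stood at 144.3 ± 6.03 CPM in induced and 144.6 ± 5.17 CPM in non-induced cells.

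SEC61A1, the pore-forming subunit of the translocon (ENSG00000058262, GRCh38 chromosome 3, 128051641 to 128071683, plus strand), had the largest fitted change of the 49 genes with the block. It was at 307.6, 392.2, 384.5 and 368.1 CPM in induced libraries 1 to 4 and at 290.9, 348.2, 323.0 and 306.6 CPM in non-induced libraries 1 to 4. Every induced library was above its partner, by a log2 difference of 0.08 in pair 1 and 0.17 to 0.26 in pairs 2 to 4, while induced library 1 lay within the range of the non-induced group. This gave a log2 change of 0.19 (SE 0.038, 14.2% higher, edgeR adjusted p = 0.00467 with the block and 0.545 without). The call held in every alternative run with the block, with adjusted p values of 8.4e-05 to 0.0477, and without both libraries numbered 1 it passed without the block as well (0.22, adjusted p = 0.0348). The exons of SEC61A1 share 344 bases with RUVBL1 on the opposite strand, and no source used here says whether the authors counted by strand. Among other called genes, SEC31A shares 482 bases with THAP9-AS1 on the same strand and 84 with THAP9 on the opposite strand. SPCS3 shares 314 bases with AC019163.1 and COPB2 86 with MRPS22, both on the opposite strand. Genes that were not called have such overlaps too, such as SPCS1 with 2698 bases of NEK4 on the opposite strand.

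The other SEC61 subunits did not pass the threshold. SEC61B averaged 80.5 ± 9.69 CPM in induced and 82.0 ± 6.37 CPM in non-induced cells, and SEC61G, the small subunit that clamps the pore, averaged 70.4 ± 11.9 and 72.3 ± 9.02 CPM (log2 -0.03 and -0.05, edgeR adjusted p = 0.704 and 0.575 with the block). Their block intervals, -0.13 to 0.07 and -0.14 to 0.05, do not reach the estimate for SEC61A1. Without the block, the interval of SEC61A1, -0.0053 to 0.40, overlapped those of SEC61B, -0.24 to 0.19, and SEC61G, -0.35 to 0.27. No difference between these subunits was tested. SEC63, which brings the chaperone BiP to the channel, was higher in 4 of 4 pairs at 131.4 ± 11.3 CPM in induced and 121.9 ± 11.4 CPM in non-induced cells, and missed the threshold (log2 0.11, edgeR adjusted p = 0.0622 with the block). SEC62, its partner, was at 135.9 ± 9.90 CPM in induced and 132.7 ± 10.7 CPM in non-induced cells (log2 0.04, adjusted p = 0.576). Of the 4 subunits of the translocon-associated TRAP complex, SSR1 to SSR4, none passed, with log2 changes of -0.08 to 0.08.

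The signal peptidase cuts off signal sequences. Its genes gave calls in both directions. SPCS3, a non-catalytic subunit (ENSG00000129128, GRCh38 chromosome 4, 176319964 to 176332245, plus strand), was at 246.4, 257.5, 260.9 and 244.3 CPM in induced libraries 1 to 4 and at 240.6, 228.8, 224.9 and 199.0 CPM in non-induced libraries 1 to 4. All 4 induced values lay above all 4 non-induced values. SPCS3 thus had a fitted log2 change of 0.18 (SE 0.041, 13.1% higher, edgeR adjusted p = 0.0115 with the block and 0.427 without). It missed the threshold without pair 3 (0.0744) or pair 4 (0.0961), and passed without the block when both libraries numbered 1 were left out (0.22, adjusted p = 0.0497).

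SEC11A, a catalytic subunit, was at 129.9, 125.9, 131.0 and 134.1 CPM in induced libraries 1 to 4 and at 142.8, 134.0, 138.7 and 150.0 CPM in non-induced libraries 1 to 4. All induced values but the highest, 134.1 CPM, lay below every non-induced value. This came to a log2 change of -0.12 (SE 0.036, -7.85%, edgeR adjusted p = 0.0426 with the block and 0.529 without). It was lost without any 1 of the 4 pairs, with DESeq2 (adjusted p = 0.152) and without robust estimation (edgeR, 0.0503). SEC11C, the alternative catalytic subunit, averaged 34.7 ± 5.11 CPM in induced and 32.1 ± 1.94 CPM in non-induced cells (log2 0.11, adjusted p = 0.253). SPCS1 and SPCS2 had log2 changes of -0.08 and 0.02 with adjusted p values of 0.187 and 0.860. Over the 14 genes of the translocon, TRAP and signal peptidase, 2 were called higher and 1 lower with the block, and the median log2 change without it was 0.03.

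**Figure D2:**
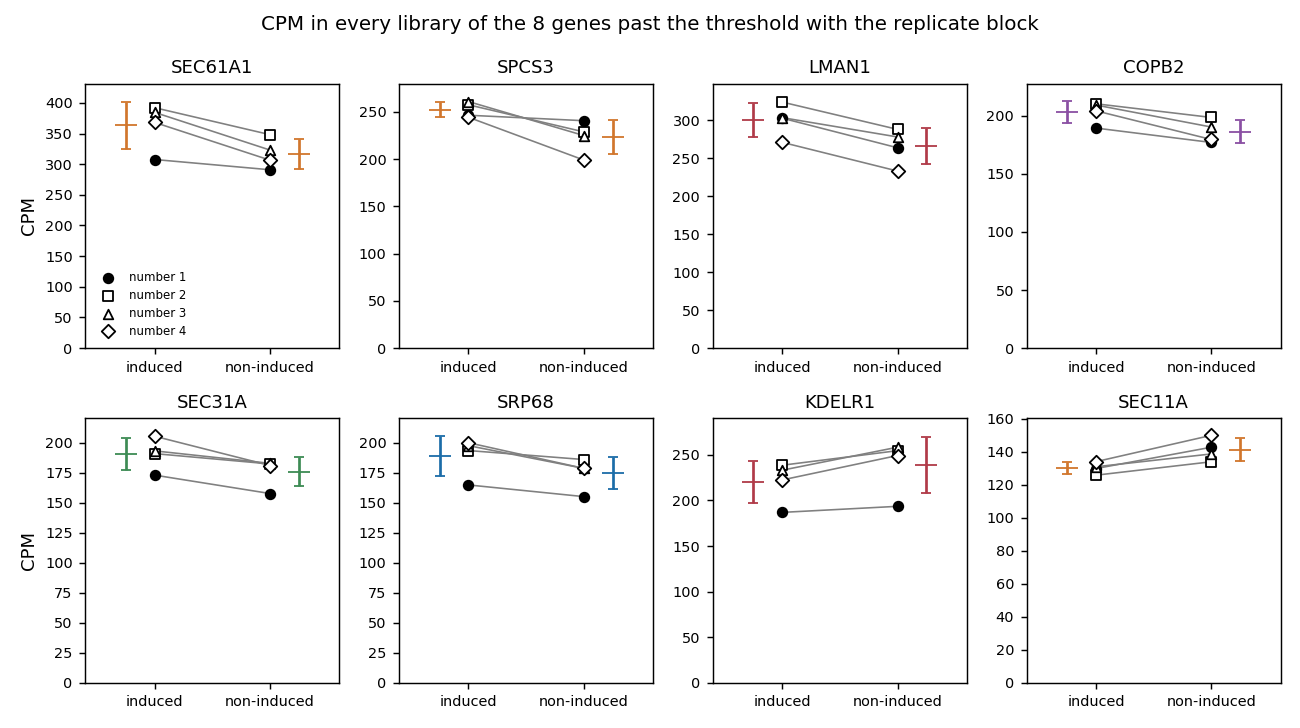
TMM-scaled CPM of the 8 genes that passed the threshold in the fit with the replicate block, in every library, with lines joining same-numbered libraries and filled circles for number 1. Horizontal ticks with bars beside the points give the mean and SD of the 4 libraries of a group. All 4 lines run the same way in each panel, and the groups are separate only for SPCS3.

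The COPII coat is built on the GTPase SAR1, which PREB, the SAR1 exchange factor, activates on the ER at sites marked by SEC16A. SAR1 recruits the inner layer of SEC23 and SEC24, which binds cargo, and the outer cage of SEC13 and SEC31. Of the 12 genes, 10 had a positive log2 change without the block (median 0.04), and 1 was called with the block. SEC31A was at 173.2, 191.1, 193.4 and 205.6 CPM in induced libraries 1 to 4 and at 157.8, 182.5, 183.0 and 181.2 CPM in non-induced libraries 1 to 4. Each induced library lay above its partner and library 1 was the lowest of both groups, with the groups overlapping. This gave a log2 change of 0.12 (SE 0.036, 8.31% higher, edgeR adjusted p = 0.0465 with the block and 0.700 without). It was lost without any 1 of the 4 pairs and with DESeq2 (0.173). The call was also lost with RLE or upper-quartile scaling, no expression filter or no robust estimation (edgeR adjusted p 0.0524 to 0.0755 with the block). SEC13, the other cage subunit, averaged 126.5 ± 15.5 CPM in induced and 130.9 ± 12.6 CPM in non-induced cells (log2 -0.05, edgeR adjusted p = 0.422 with the block).

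SEC16A averaged 176.7 ± 7.07 CPM in induced and 165.3 ± 8.71 CPM in non-induced cells and SEC23B 132.1 ± 11.6 and 123.7 ± 10.99 CPM. Both were higher in 4 of 4 pairs and missed the threshold (edgeR adjusted p = 0.0806 and 0.126 with the block). The 4 SEC24 paralogues, which select different cargo, had log2 changes of 0.03 (SEC24D) to 0.05 (SEC24A), none called. SEC24A and SAR1B lie head to head and share 385 exonic bases on opposite strands, so their counts may not be fully separate. SAR1A and SAR1B had log2 changes of 0.03 and 0.05 (adjusted p = 0.625 and 0.535), and PREB of -0.02 (0.848).

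The COPI coat is a complex of 7 subunits, of which 5 were among the genes. COPB2, the beta-prime subunit that reads retrieval signals on cargo tails (ENSG00000184432, GRCh38 chromosome 3, 139355600 to 139389732, minus strand), was at 189.5, 210.4, 209.3 and 204.3 CPM in induced libraries 1 to 4 and at 177.1, 198.6, 190.4 and 179.6 CPM in non-induced libraries 1 to 4. Every induced library was above its partner, and the groups overlapped through induced library 1. For COPB2 the fitted log2 change was 0.13 (SE 0.035, 9.09% higher, edgeR adjusted p = 0.0291 with the block and 0.561 without). It was lost without pair 3 (0.159) or pair 4 (0.150) and with DESeq2 (0.1102). COPA, with which COPB2 forms the outer layer of the coat, averaged 247.5 ± 8.08 CPM in induced and 233.6 ± 9.08 CPM in non-induced cells and was higher in 4 of 4 pairs without passing (log2 0.08, adjusted p = 0.144). COPE, the third protein of that layer, changed by -0.04 in log2 (adjusted p = 0.553), and COPB1 and COPG1 of the inner layer had changes of -0.00086 and -0.02. The median of the 5 genes was 0.0004 without the block.

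Among the receptors, LMAN1 (ERGIC-53; ENSG00000074695, GRCh38 chromosome 18, 59327823 to 59359962, minus strand) is a lectin that carries glycoproteins such as coagulation factors out of the ER. It was at 302.8, 324.0, 303.5 and 271.0 CPM in induced libraries 1 to 4 and at 263.8, 288.0, 278.0 and 233.2 CPM in non-induced libraries 1 to 4. Every induced library was above its partner, the pair differences were 0.13 to 0.22 in log2, and the groups overlapped through induced library 4. LMAN1 thus had a fitted log2 change of 0.18 (SE 0.034, 13.1% higher, edgeR adjusted p = 0.00387 with the block and 0.547 without). With the block it passed in every alternative (adjusted p 4.6e-04 to 0.0335). Unlike most of the 49 genes, LMAN1 differed little between library 1 and the others of its group, by 0.02 in log2 in induced and -0.0080 in non-induced cells.

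KDELR1, a receptor that returns chaperones with a KDEL tail to the ER, was lower in induced cells. It was at 186.9, 238.6, 233.2 and 222.5 CPM in induced libraries 1 to 4 and at 193.6, 254.6, 258.4 and 249.3 CPM in non-induced libraries 1 to 4. Library 1 was far below the rest in both groups, and without it the 3 induced values lay below the 3 non-induced ones. Its log2 change was -0.11 (SE 0.035, -7.61%, edgeR adjusted p = 0.0438 with the block and 0.838 without). Without pair 1 it was -0.14 (adjusted p = 0.0260), and the call was lost without pair 2, 3 or 4 and with DESeq2 (0.117). It was also lost with library totals (edgeR adjusted p = 0.0518 with the block) and without robust estimation (0.0560). KDELR2 and KDELR3 had log2 changes of -0.0097 and -0.04 (adjusted p = 0.887 and 0.695).

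The remaining receptors gave no call in the fit of all 4 pairs. TMED10, a p24 protein that cycles between ER and Golgi, averaged 182.3 ± 2.42 CPM in induced and 169.4 ± 7.65 CPM in non-induced cells and was higher in 4 of 4 pairs (log2 0.11, edgeR adjusted p = 0.0645 with the block). It passed without pair 1 (0.13, adjusted p = 0.0469). TMED7 was higher in 4 of 4 pairs by 0.06 to 0.08 in log2 (fitted 0.07, adjusted p = 0.246). TMED2, TMED9, LMAN2, MCFD2 and SURF4 had log2 changes of -0.04 to 0.02. Over the 11 receptors, 1 was called higher and 1 lower with the block, and the median log2 change without it was -0.0068.

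Leaving out pair 1, the fit with the block called 6 of the 49 genes, where 10.9% of 15769 tested genes passed. These were SEC61A1, SPCS3, LMAN1, COPB2 and TMED10, which were higher (5.12% of all tested genes were), and KDELR1, which was lower. The full fit with the block called 1 higher of 7 SRP genes, and 2 higher and 1 lower of 14 in the translocon group. COPII held 1 higher of 12, COPI 1 higher of 5, and the receptors 1 higher and 1 lower of 11. Over all tested genes 13.8% were called in that fit, and no difference between these groups was tested.

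Per exon length, the genes differed far more from each other than between the groups. Levels in TPM (reads per exon length, scaled to a fixed total in each library, from GENCODE 29 exons) averaged 382 ± 30.8 in induced and 403 ± 45.6 in non-induced cells for KDELR1, the most abundant of the 49. TMED9 was at 339 and 338 TPM, SRP9 at 327 and 319, TMED2 at 307 and 296 and SSR3 at 305 and 281 in induced and non-induced cells. SRP19, at 8.71 TPM in induced and 8.96 TPM in non-induced cells, was the least abundant. Lengths were taken over the merged exons of all transcripts of a gene, which can exceed the transcript in use and lower the TPM. This length was 10517 bases for SRP19, 1470 of them shared with a pseudogene, and 10963 bases for SAR1B. SAR1B was at 19.5 and 18.4 TPM and SEC11C at 30.1 and 27.0 TPM. The median TPM over all 8 libraries was 218 among the receptors, 120 among the COPI genes, 104 among the SRP genes, 79.5 in the translocon group and 74.6 among the COPII genes. The 49 genes together held 6969 to 7889 CPM in induced and 7014 to 7675 CPM in non-induced libraries, and the lowest value of each group was library 1.

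**Figure D3:**
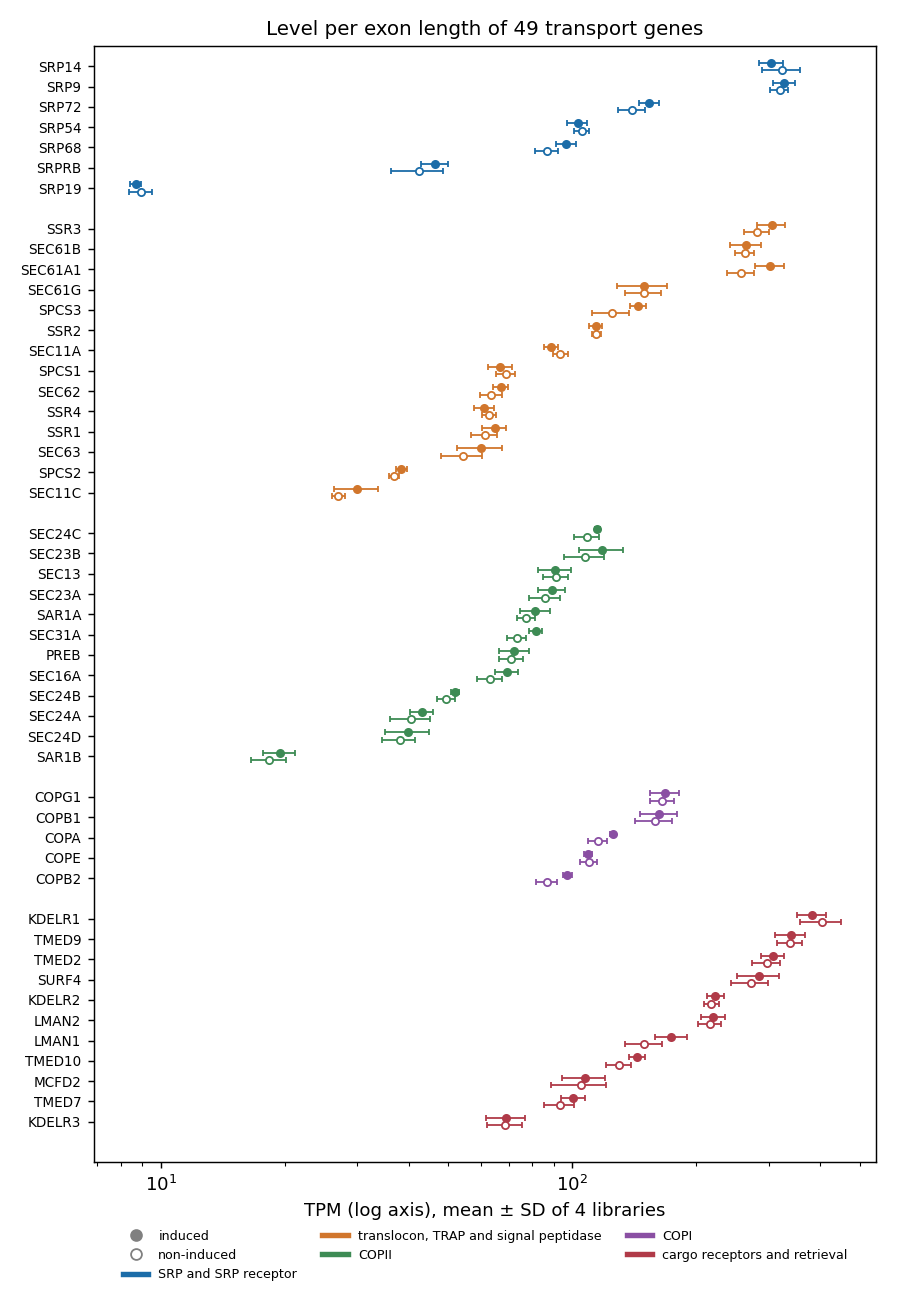
Level per exon length (TPM, log axis) of the 49 genes, with filled points for induced and open points for non-induced cells, each the mean of 4 libraries with its SD. Levels run from 8.71 TPM in induced and 8.96 TPM in non-induced cells for SRP19 to 382 TPM in induced and 403 TPM in non-induced cells for KDELR1, and the points of a gene lie close together.

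Ratios of reads within a library do not depend on scaling between libraries. LMAN1 works in a complex with MCFD2, and the ratio of LMAN1 to MCFD2 reads was 2.27, 1.74, 1.72 and 1.68 in induced libraries 1 to 4 and 2.03, 1.53, 1.52 and 1.46 in non-induced libraries 1 to 4. Each induced ratio was above its partner, by a nearly constant log2 difference of 0.16, 0.18, 0.18 and 0.20 (mean 0.18, SD 0.015), although the ratio itself was higher in library 1 of both groups. The 2 signal peptidase catalytic subunits shifted relative to each other in 4 of 4 pairs but unevenly, with a SEC11C to SEC11A ratio of 0.214, 0.317, 0.276 and 0.262 in induced libraries 1 to 4 and 0.206, 0.239, 0.236 and 0.227 in non-induced ones. The mean log2 difference was 0.22 (SD 0.14).

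Among the KDEL receptors, KDELR2 over KDELR1 was higher in 3 of 4 pairs (mean log2 difference 0.10, SD 0.091), and KDELR3 over KDELR1 likewise in 3 of 4 (0.08, SD 0.12). Per exon length, KDELR3 stood at 0.181 of KDELR1 in induced and 0.171 in non-induced cells. In the COPII coat, SEC23A over SEC23B was lower in 4 of 4 pairs (mean log2 difference -0.08, SD 0.045). Its ratio of reads was 1.17, 1.66, 1.76 and 1.68 in induced libraries 1 to 4 and 1.27, 1.80, 1.81 and 1.72 in non-induced ones. Library 1 thus differed from the rest by more than the groups did. SAR1A over SAR1B, SEC24D over SEC24C and SEC24B over SEC24A had mean differences of -0.01, -0.02 and -0.01, with signs that differed between pairs. These ratios are descriptions without a test.

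**Figure D4:**
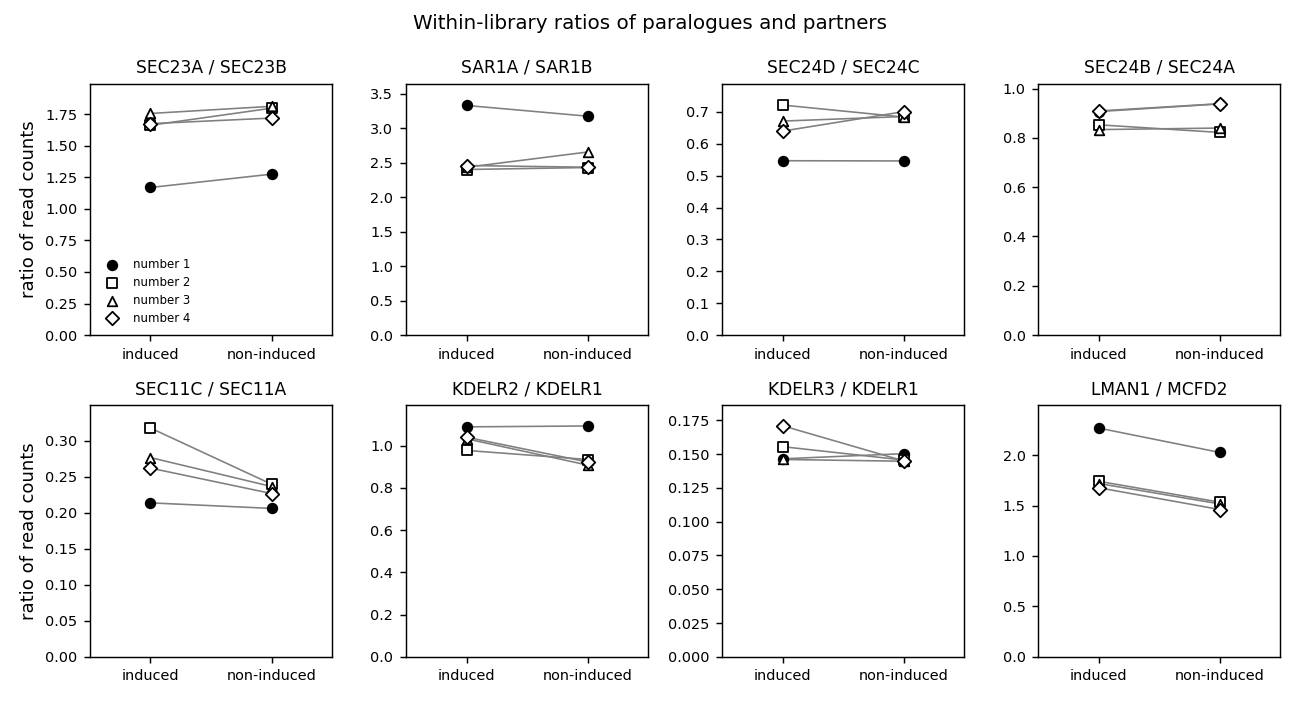
Ratio of read counts of 2 related genes within each library, for 8 ratios, with lines joining same-numbered libraries and filled circles for number 1. The 4 lines for LMAN1 over MCFD2 are nearly parallel and higher in induced cells, and library 1 stands apart for SEC23A over SEC23B and SAR1A over SAR1B in both groups.

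For most of these genes library 1 differed from the others of its group by more than the change with induction. In log2 CPM, its median absolute difference from the mean of libraries 2 to 4 was 0.21 in induced and 0.16 in non-induced cells. The median absolute change with induction was 0.05. Over all tested genes these medians were 0.24, 0.23 and 0.10, so a larger shift in library 1 was not particular to the 49. The shift is that of 1 library and the change an average over 4 pairs, so their noise differs. Library 1 was lower for 38 of 49 genes in induced and 31 in non-induced cells, beside 7718 and 7626 of all 15637 tested genes. The deviation had the same sign in both groups for 40 of 49 genes, lower in library 1 for 30 and higher for 10. It was larger than the change with induction in both groups for 32 of 49. MCFD2 was lower in library 1 by 0.39 in induced and 0.44 in non-induced cells, SURF4, a cargo receptor, by 0.45 and 0.35, and COPB1 by 0.40 and 0.37. SEC23B and SEC63 were higher in library 1, by 0.23 and 0.23 and by 0.23 and 0.26. What a replicate number stands for is not given by the labels.

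**Figure D5:**
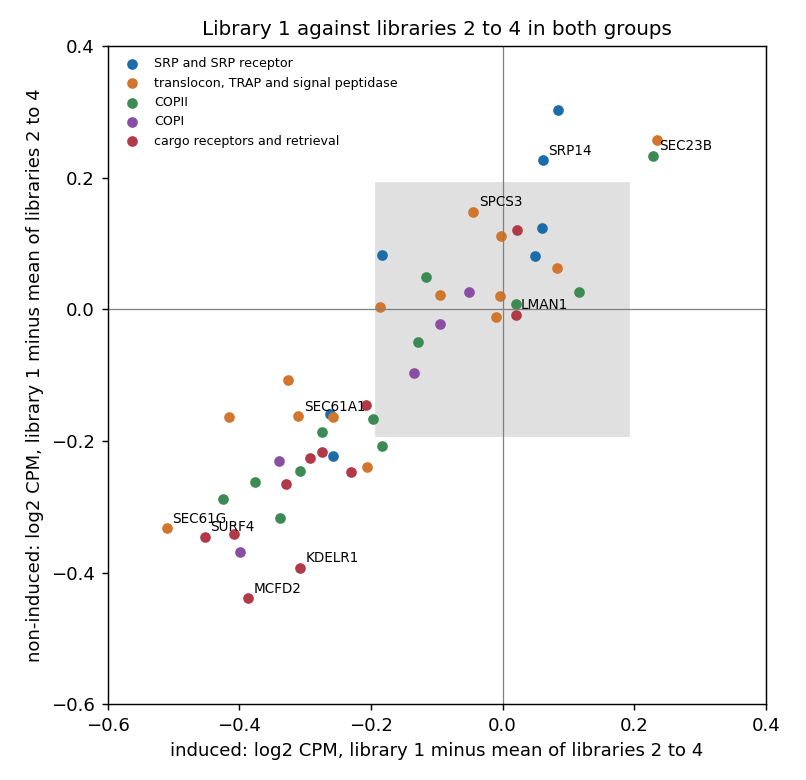
Difference in log2 CPM between library 1 and the mean of libraries 2 to 4, in induced (horizontal) and non-induced (vertical) cells, for the 49 genes coloured by group. The grey square spans the largest absolute log2 change with induction among them, 0.19, in either direction. Most points lie along the diagonal, with 30 genes lower and 10 higher in library 1 of both groups.

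The wider pathway was described with 102 further genes of translocation, COPII and tethering, COPI, cargo receptors and ER stress, of which 100 were tested. Without the block 0 of them passed in edgeR, and 9 had an unadjusted p under 0.05, beside 1466 of all 15637 tested genes. DESeq2 without the block called 2 of them, beside 108 higher and 132 lower among all tested genes. With the block 11 of them were higher and 6 lower in edgeR, beside 7.51% and 6.29% of all tested genes. Without pair 1, the block fit called 12 higher and 4 lower, where 5.12% of all tested genes were higher and 10.9% were called in either direction. TRAM1, a membrane protein beside the SEC61 channel, was at 299.6, 287.2, 288.9 and 325.0 CPM in induced libraries 1 to 4 and at 261.8, 267.7, 255.5 and 265.2 CPM in non-induced libraries 1 to 4. The groups did not overlap, with a log2 change of 0.19 (SE 0.037, edgeR adjusted p = 0.00437 with the block and 0.305 without). TMED5, a p24 protein, was at 105.7 to 109.4 CPM in induced and 82.0 to 97.3 CPM in non-induced cells, again without overlap (log2 0.24, SE 0.046, adjusted p = 0.00346 with the block and 0.257 without). Of the 100 further genes tested, 7 had groups without overlap, 6 higher and 1 lower, beside 7.04% of all tested genes.

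The other genes of these lists that were higher with the block were HSPA13 (0.20) and HYOU1 (0.41) of the translocation list, the tether USO1 (0.15), GBF1 (0.16), ARFGAP2 (0.13) and NBAS (0.16) of the COPI list, TMED8 (0.16), and XBP1 (0.15) and HERPUD1 (0.15) of the ER stress list. Lower in induced cells were the SNARE BET1 (-0.19), TRAPPC1 (-0.14), ARF4 (-0.12), ARF5 (-0.18), YIF1B (-0.17) and CNIH3 (-0.47). Each of these log2 changes had an edgeR adjusted p under 0.05 with the block, between 0.00162 (CNIH3) and 0.0434 (HERPUD1) for those named by the naming rule. With all pairs, 2 of the 12 genes of the ER stress list were higher with the block, beside 7.51% of all tested genes, and 0 passed without it. Without pair 1, 6 of the 12 passed with the block, all higher, beside 5.12% of all tested genes. These were XBP1, HERPUD1, HSPA5, DNAJB9, SDF2L1 and PDIA4. In the same fit the COPI genes GBF1, ARFGAP2 and NBAS no longer passed (edgeR adjusted p = 0.0578, 0.0903 and 0.0682), so that 0 of the 18 further COPI genes were called higher, where 3 had been. CNIH3 was at 3.90 CPM in induced library 1 and 4.63 CPM in non-induced library 1, against 14.2 to 16.3 CPM in the other induced and 18.3 to 23.5 CPM in the other non-induced libraries.

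HSPA5, the ER chaperone BiP, which also seals and pulls at the translocon, was at 1620, 1064, 1131 and 987.7 CPM in induced libraries 1 to 4 and at 1565, 681, 735.6 and 747.3 CPM in non-induced libraries 1 to 4. Library 1 of both groups was far above the rest. The pair differences in log2 were 0.05 in pair 1 and 0.64, 0.62 and 0.40 in pairs 2 to 4. The fitted change was 0.43 (SE 0.12, edgeR adjusted p = 0.116 with the block, 0.0262 with DESeq2 and the block), and without pair 1 it was 0.55 (edgeR adjusted p = 3.2e-05). HYOU1, its exchange factor, likewise had 0.08 in pair 1 and 0.50 to 0.55 in pairs 2 to 4. The pairs in which these chaperones differed most were also those in which more of the 49 transport genes were higher, and whether these are linked was not tested. The transcription factors ATF6, CREB3L1 and CREB3L2 had log2 changes of 0.06, -0.02 and 0.06 and were not called.

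Promoters are given because XBP1 and ATF6, factors of the unfolded protein response, bind known elements in front of many secretory genes. The 250 bases before the start were taken from RefSeq (GRCh38.p14) and matched 45 of the 49 genes, without SPCS1, SEC24D, KDELR2 and TMED9. Searched on both strands, the core of the UPRE element, TGACGTGG, was in 6 of the 45 (13.3%), beside 0.612% of all 35116 promoters and 0.685% of those of tested genes. Its 6 holders are shown with the element in capitals, in the direction of the gene, so that the complement CCACGTCA marks a match on the other strand.
SRP19, chr5:112861164-112861193, plus strand: aagtcttcatgCCACGTCAgagactagaga
SEC62, chr3:169966779-169966806, plus strand: ccctcctcgctCCACGTCAgagggaacc
SEC24A, chr5:134648595-134648624, plus strand: gtgagagtcggTGACGTGGcggcgaggccg
COPB1, chr11:14499841-14499870, minus strand: cccacccccttCCACGTCAgccaaggactc
COPB2, chr3:139389825-139389854, minus strand: gctcagcggcaCCACGTCAcggcccttagt
KDELR3, chr22:38468039-38468068, plus strand: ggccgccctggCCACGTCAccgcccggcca
Of these 6 genes, COPB2 alone was called with the block, and the log2 changes of SRP19, SEC62, SEC24A, COPB1 and KDELR3 were -0.08, 0.04, 0.05, -0.00086 and -0.04. The windows of SRP19, SEC62, COPB1 and KDELR3 overlap exons of further transcripts of the same gene in GENCODE 29, and those of SEC24A and COPB2 lie in an exon of SAR1B and of AC097103.2 on the opposite strand. The ER stress element ERSE, CCAAT followed after 9 further bases by CCACG, was in 0 of 45 promoters, beside 0.0740% of all, and its variant ERSE-II, ATTGG followed after 1 further base by CCACG, in 0 of 45, beside 0.0513%. The shorter CCACG, which ends both and overlaps the complement of the UPRE core, was in 34 of 45 (75.6%), beside 33.5% of all promoters and 42.4% of those of tested genes. A match is a run of letters and does not show binding.

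For comparison, some of the chaperone and ER stress genes described above held matches, shown with the fixed letters in capitals. They are ERSE for HSPA5 and XBP1, and ERSE-II for HYOU1 and HERPUD1, on the other strand for HYOU1. The stretch of HYOU1 also holds a UPRE core that overlaps the match. Not shown are another ERSE-II of HYOU1, at -79 to -69 from its start, and an ERSE-II of SDF2L1. DNAJB9 and PDIA4 held no ERSE, ERSE-II or UPRE core, only the shorter CCACG.
HSPA5, chr9:125241386-125241414, minus strand: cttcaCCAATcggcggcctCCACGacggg
XBP1, chr22:28800598-28800626, minus strand: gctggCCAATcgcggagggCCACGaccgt
HYOU1, chr11:119057371-119057399, minus strand: gccccgtgaCGTGGtCCAATcccaggccg
HERPUD1, chr16:56932016-56932044, plus strand: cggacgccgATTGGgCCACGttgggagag
SEC61A1, with the largest change of the 49, held none of the 4 patterns in its 250 bases, which are given in full for that reason.
SEC61A1, chr3:128051391-128051640, plus strand: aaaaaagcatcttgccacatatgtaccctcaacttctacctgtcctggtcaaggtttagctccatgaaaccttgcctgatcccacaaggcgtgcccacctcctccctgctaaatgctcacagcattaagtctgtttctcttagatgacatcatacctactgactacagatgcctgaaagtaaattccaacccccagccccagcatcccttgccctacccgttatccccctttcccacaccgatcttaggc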

How the data were processed

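The authors deposited whole-number read counts per Ensembl gene for 8 libraries and a second table that equals these counts divided by 1 factor per library, which was not used further. Per the labels' protocols, total RNA was prepared with a directional NEBNext kit and sequenced on a NextSeq 500 as single reads. Per the submitters' processing notes, the tools were bcl2fastq, Trimmomatic 0.38, HISAT2 2.1.0, HTSeq 0.11.1 and DESeq2 1.24.0 with hg38; the annotation release, and whether reads were counted by strand, are not given here in any source. Symbols were mapped with GENCODE 29, which held 58275 of the 58395 gene IDs.

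Genes were kept by filterByExpr (minimum count 10), scaled by TMM and tested with the quasi-likelihood test of edgeR 4.0.16 in R 4.3.3 (robust, two-sided, Benjamini-Hochberg adjustment over 15637 genes, threshold 0.05), without and with the replicate number as a block, and this step was tested on simulated data. The fit without the block is the main one. Deviations from the group means correlated at 0.911, 0.704, 0.707 and 0.648 for same-numbered libraries over 11502 genes. For differently numbered ones the correlations were -0.775 to 0.667, and 0.349 to 0.667 among numbers 2 to 4. The pairing comes from the shared numbers and these correlations, since no label explains a number, and it is less sure for numbers 2 to 4. No label says either that replicates were separate cultures, and p-values then measure only the spread among these libraries, which may be technical. Intervals are 95% confidence intervals. Some marker values are not reported here.

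The genes, lists and tests were chosen with earlier results of these data known. The naming rule took every gene of the 49 that was called in either fit, the most and least abundant of each group, both partners of 8 ratios, and up to 4 called genes with the smallest p of each further list with XBP1, ATF6, CREB3L1, CREB3L2 and HSPA5. It gave 48 genes, 27 of them among the 49; other genes were named after their values were seen. Alternatives were DESeq2 1.42.0, RLE, upper-quartile and library-total scaling, no filter, a filter at 10 CPM in 4 libraries, no robust estimation, and each library, each pair or both libraries numbered 1 left out.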

Additional observations from a re-analysis of the deposited data

Results flagged for a closer look

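In each group of 4 libraries, the CPM of each of the 49 genes was examined for a value far from the other 3 by Dixon's gap ratio at the 95% level. Of 98 groups of 4 values, 15 held such a value, and chance alone gives about 1 in 20. Of the 15, 8 were induced library 1, 6 were non-induced library 1 and 1 was non-induced library 4.

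In induced library 1, all 8 values were low. They were SRP54 at 89.4 CPM (the other 3 induced libraries 106.4 to 109.0), SEC24C at 147.7 (159.2 to 160.7) and SEC13 at 103.4 (132.3 to 136.4). COPI genes accounted for 3 of them, COPA at 235.4 CPM (251.3 to 252.1), COPB1 at 172.7 (224.4 to 229.6) and COPG1 at 158.4 (199.6 to 201.0). The cargo receptors LMAN2 at 113.4 CPM (138.1 to 140.4) and SURF4 at 196.4 (264.2 to 274.3) completed them.

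In non-induced library 1, SEC63 was high at 138.9 CPM (the other 3 non-induced libraries 114.3 to 118.0). The other 5 were low: SEC62 at 116.8 CPM (136.1 to 139.7), SEC31A at 157.8 (181.2 to 183.0), COPB1 at 175.6 (225.6 to 228.3), KDELR1 at 193.6 (249.3 to 258.4) and KDELR3 at 29.1 (36.1 to 37.4). In non-induced library 4, SAR1A was low at 134.9 CPM, beside 141.9 to 142.1 in the other 3. COPB1 was the 1 gene with such a value in both groups.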

How the results depend on the processing

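Without the block, 0 of the 49 genes passed in the fit of all libraries and in each alternative but 1: with both libraries numbered 1 left out, 2 passed, both higher. In that alternative 242 higher and 301 lower of all 15769 tested genes passed. With the replicate block 8 of the 49 passed, 6 higher and 2 lower. Within the block fit, counts were 3 with DESeq2 (3 higher) and 4 without robust estimation (4 higher), and ran from 2 to 6 when 1 pair was left out (6 without pair 1, 4 without pair 2, 2 without pair 3 and 2 without pair 4). Over all tested genes, the block fit called 1175 higher and 984 lower of 15637. DESeq2 with the block called 570 and 537 of them, and edgeR without robust estimation 1117 and 950. Calls over all genes were 1118 and 851 of 15624 without pair 2 and 706 and 548 of 15640 without pair 3. They were 427 and 482 of 15841 without pair 4, and 10.9% were called without pair 1. With RLE or upper-quartile scaling the split among the 49 was 4 higher and 3 lower. SEC61A1 and LMAN1 passed in every block alternative. SRP14, SEC63 and TMED10 passed in some and not in the fit of all pairs. Of the further pathway genes, 0 passed without the block, 17 with it, 2 with DESeq2 without the block, and 6 without both libraries numbered 1. With 1 library left out, the median log2 change of the COPI genes ran from -0.038 to 0.086 and that of the cargo receptors from -0.050 to 0.071, each highest without induced library 1.

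None of the genes whose direction turned had passed except XBP1 and HERPUD1, which passed with the block and turned only without it. Without the block and with 1 library left out, log2 changes ran from -0.020 to 0.039 (SPCS2), -0.042 to 0.083 (SEC23A), -0.026 to 0.12 (SAR1B), -0.040 to 0.071 (TMED2), -0.11 to 0.055 (KDELR3), -0.0017 to 0.049 (SAR1A), -0.035 to 0.12 (SEC24D), -0.0012 to 0.11 (SEC24A), -0.043 to 0.037 (KDELR2), -0.11 to 0.077 (MCFD2), -0.062 to 0.37 (XBP1), -0.32 to 0.65 (HERPUD1) and -0.11 to 0.068 (CREB3L1), and KDELR2 was at 0.00017 without both libraries numbered 1. With the replicate block, signs turned without pair 4 for SPCS2 (-0.011), SEC23A (-0.036) and TMED2 (-0.023), without pair 3 for SEC23A (-0.000403), MCFD2 (0.00955) and CREB3L1 (0.0086), without pair 2 for CREB3L1 (0.0017), without pair 1 for KDELR2 (9.5e-05), with upper-quartile scaling for TMED2 (-7.70e-05) and with library totals for MCFD2 (0.000825). The causes were not tested.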
